A study of Mus musculus with 8 samples.

Results

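Stem and early progenitor genes are a set of 10 genes that are active in the cells that seed the thymus and are silenced as those cells commit to the T lineage. The set was formed of the receptor and surface genes Kit, Flt3 and Cd34 and the transcription factor genes Lyl1, Tal1, Lmo2, Hhex, Meis1, Bcl11a and Mef2c. Its members were all probe sets whose platform gene symbol was one of these names, which gave 16 probe sets of 10 genes, out of 20393 probe sets of 12394 genes that carried a single gene symbol. Mef2c had 5 probe sets, Kit and Bcl11a had 2 each, and the other 7 genes had 1.

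The values come from 8 Affymetrix mouse arrays, 2 for each of 4 groups. RNA was taken from sorted CD4-negative CD8-negative cells of female C57BL/6 mice aged 6 to 8 weeks, either from the thymus (thymocytes) or from the spleen (thymus emigrants). The mice had been given corn oil alone or 10 µg/kg TCDD in corn oil, into the peritoneum. TCDD is the dioxin that strongly activates AhR, the aryl hydrocarbon receptor, a transcription factor that senses such compounds. In all groups the fluorescent dye FITC was put into the thymus 5 days later, and sorting followed 24 h after the dye. The study asks about the part of AhR in the emigration of thymocytes, and its groups let TCDD be compared with oil in each cell source and emigrants with thymocytes under each treatment. Nothing in the labels ties the 2 arrays of a group to different mice or pools. The p-values therefore reflect the spread between these arrays alone, and that spread may be technical.

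Groups followed the sample titles. Some other fields go against them: for emigrants oil 1 the Treatment field reads TCDD, for emigrants oil 2 it reads Dioxane 2, and the descriptions of both thymocyte TCDD arrays speak of oil only. The Tissue field of emigrants oil 2 and TCDD 1 reads Thymus, and the Treatment field gives 10 nM where the protocol gives a dose per body weight. As a check of treatment, the brightest probe set of the AhR target Cyp1b1 had log2 values of 4.62 and 5.04 in the thymocyte oil arrays and 8.46 and 9.59 in the thymocyte TCDD arrays. In the emigrants it had values of 4.69 and 6.25 with oil and 6.87 and 8.36 with TCDD. As a check of the sort, Cd3e, a chain of the T cell receptor complex, lay between 8.09 and 8.91 on all 8 arrays. Cd4 lay between 4.53 and 5.31, close to the array medians of 4.81 to 4.91. Cd8a was at 5.15 and 6.66 in thymocytes with oil, 5.05 and 7.14 in thymocytes with TCDD, 4.57 and 5.84 in emigrants with oil and 6.18 and 6.24 in emigrants with TCDD. Cd8b1 was at 4.18 and 5.10, 4.72 and 5.75, 3.98 and 3.80, and 5.04 and 4.47 in the same order. Both were thus higher with TCDD in emigrants without overlap, where 24.5% of all probe sets had none, and neither passed the limma test described below.

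Thymic progenitors arrive from the bone marrow with receptors for stem cell factor (Kit) and FLT3 ligand (Flt3) and a set of transcription factors shared with blood stem cells. Notch signalling in the thymus then switches on T lineage factors, and the progenitor factors are shut off in turn. Several of them return or stay on in other blood lineages: Tal1 and Lmo2 in erythroid cells and megakaryocytes, Kit in mast cells, Bcl11a and Mef2c in B cells and Flt3 in dendritic cells. When held on in immature T cells, Tal1, Lyl1 and Lmo2 are known drivers of T cell leukaemia.

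In these cells Kit had the widest range of the members, and its highest levels were in the emigrants, with the TCDD arrays above the oil arrays within each source. Hhex was higher in every emigrant array than in every thymocyte array, and Cd34 was lower in every emigrant array than in every thymocyte array. These were 2 of the 16 member probe sets (12.5%), against 11.9% of all probe sets with no overlap between the sources, a share near that background. Tal1 stood out in replicate 1 of both emigrant groups, and Mef2c in 1 thymocyte array. None of the 16 member probe sets passed the test in any comparison (limma, adjusted p over all probe sets under 0.05). The same test called 0.0785% of all probe sets for emigrants against thymocytes over both treatments, and 0% in each of the other comparisons.

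Levels are log2 RMA values, and no signal over background was used here, so a level is set beside the median of all probe sets on its array. Of the 16 member probe sets, 5 lay above the array median on all 8 arrays (31.2%, against 42.2% of all probe sets). They belonged to Kit, Flt3, Lmo2, Hhex and Mef2c. Another 6 lay above it on no array: those of Cd34 and Meis1, the second of Kit, the second of Bcl11a and the dimmest 2 of Mef2c. Values and differences of these dim probe sets, those of Cd34 and Meis1 included, are given as measured, and no level among them was shown to be above background noise. A range of at least 1 log2 unit over the 8 arrays was found for 9 of the 16 (56.2%, against 29.1% of all probe sets).

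**Figure D1:**
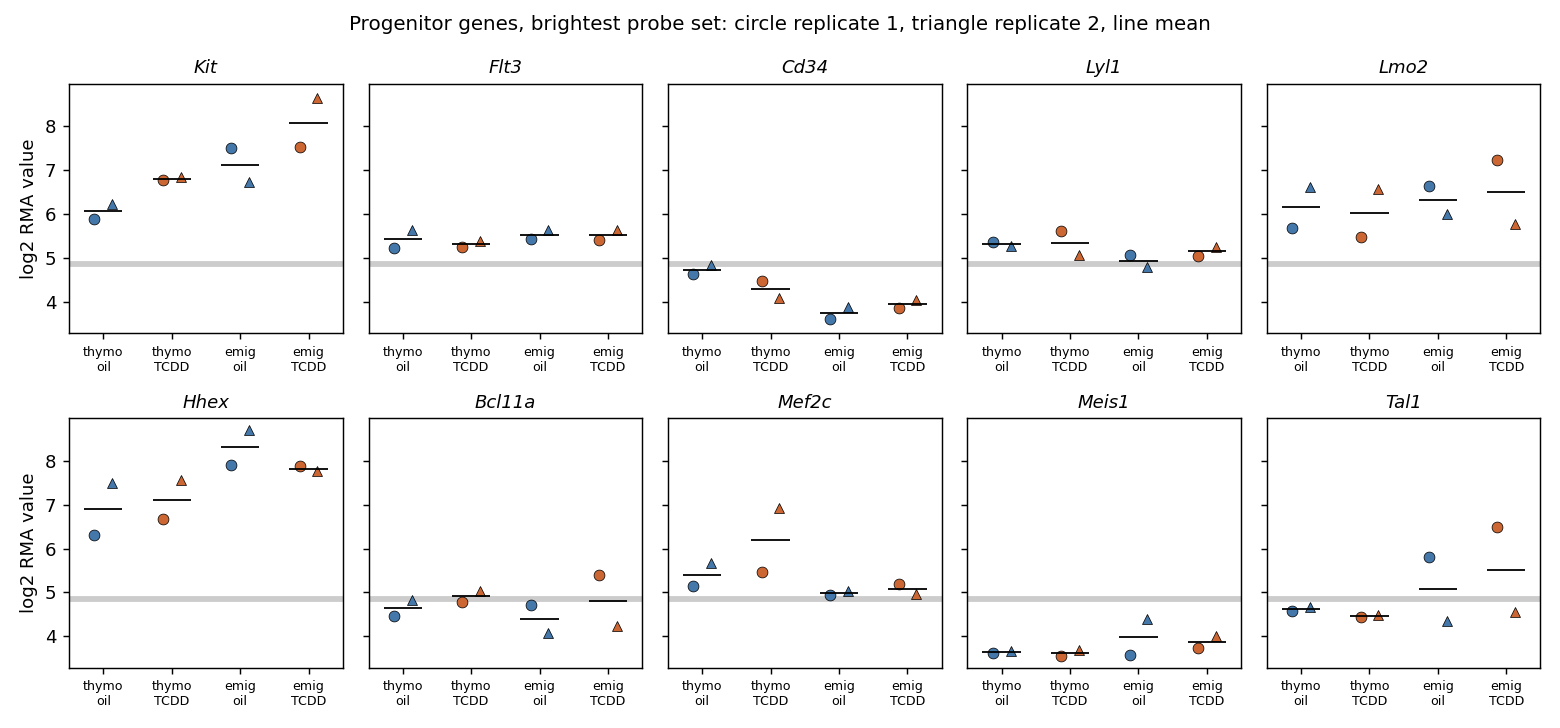
Log2 RMA value (y axis) of the brightest probe set of each of the 10 genes in thymocytes (thymo) and emigrants (emig) given oil (blue) or TCDD (orange); circles are replicate 1, triangles replicate 2, black lines group means, and the grey band spans the 8 array medians. Kit climbs from 5.89 in a thymocyte oil array to 8.64 in an emigrant TCDD array, while all values of Cd34 and Meis1 are below the median of their own array.

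The sequence just before the gene start is shown for Kit, because its TCDD arrays lay above its oil arrays in both sources, and for Tal1, because its level ran with erythroid genes. The windows are the 250 bases before the start, from RefSeq on GRCm38.p6, at chr5:75574737-75574986 (plus strand, Kit) and chr4:115056176-115056425 (plus strand, Tal1). Capitals mark, on either strand, the AhR core motif GCGTG in Kit and the GATA motif GATAA in Tal1.
Kit: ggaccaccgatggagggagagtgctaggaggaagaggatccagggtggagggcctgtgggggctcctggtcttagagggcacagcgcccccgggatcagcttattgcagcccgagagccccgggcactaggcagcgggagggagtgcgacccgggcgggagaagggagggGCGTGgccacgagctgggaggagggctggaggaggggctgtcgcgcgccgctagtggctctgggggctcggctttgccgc
Tal1: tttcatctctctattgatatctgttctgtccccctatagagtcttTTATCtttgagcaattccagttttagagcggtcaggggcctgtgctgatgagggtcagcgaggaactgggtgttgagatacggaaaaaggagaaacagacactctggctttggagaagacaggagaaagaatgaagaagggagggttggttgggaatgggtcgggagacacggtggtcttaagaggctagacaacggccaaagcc

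The GCGTG match of Kit begins 80 bases before the start in the window shown. Its other window, at chr5:75574741-75574990, overlaps this one almost wholly and holds the same match. The GATAA match of Tal1 begins 205 bases before the start and is in 1 of its 2 windows only. GCGTG or its complement was in 28.2% of all 32851 windows of this length, and GATAA in 22.6%. Windows were found for 9 of the 10 genes, 13 windows in all. GCGTG was also in the window of Meis1, and GATAA was also in 1 of the 3 windows of Mef2c, with 2 matches. The E-box CANNTG, the motif bound by dimers of Tal1 or Lyl1 with E proteins, was in 66.2% of all windows, and in those of Flt3, Lyl1, Bcl11a and Meis1 and 2 of the 3 of Mef2c. A match describes these letters only and shows no binding.

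Kit encodes the receptor tyrosine kinase for stem cell factor, which supports survival and growth of progenitors. Its brighter probe set had log2 values of 5.89 and 6.23 in the thymocyte oil arrays and 6.77 and 6.83 in the thymocyte TCDD arrays. In the emigrants the values were 7.50 and 6.72 with oil and 7.51 and 8.64 with TCDD. The TCDD arrays did not overlap the oil arrays in either source, but in the emigrants the gap between oil 1 and TCDD 1 was that between 7.496 and 7.512.

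The log2 difference of Kit between TCDD and oil was 0.74 in thymocytes (SE 0.41, n = 2 against 2, limma adjusted p = 1) and 0.97 in emigrants (SE 0.41, limma adjusted p = 1). The difference in emigrants was 0.40 without emigrants TCDD 2, 0.58 without emigrants oil 2 and 1.53 without emigrants TCDD 1. Averaged over both sources, a comparison chosen after the data were examined, it was 0.85 (SE 0.29, limma adjusted p = 1). Kit was among the probe sets with an unadjusted p under 0.05 there, which were 1.26% of all, and 0% passed after adjustment. The TCDD difference in emigrants less that in thymocytes was 0.22 (SE 0.59, limma adjusted p = 1).

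Between the sources, Kit was 2.24-fold higher in emigrants over both treatments (log2 difference 1.16, SE 0.29, n = 4 against 4, limma adjusted p = 0.154). The difference was 1.05 under oil (SE 0.41, adjusted p = 0.527) and 1.27 under TCDD (SE 0.41, adjusted p = 0.558). The arrays did not overlap under either treatment, but over both treatments emigrants oil 2 at 6.72 lay below both thymocyte TCDD arrays. The second Kit probe set, at 4.56 to 4.89 and below every array median, had a source difference of 0.09 and TCDD differences of 0.10 and 0.20. Its TCDD arrays too lay above its oil arrays within each source, but thymocytes TCDD 2 at 4.644 and thymocytes oil 2 at 4.639 nearly met. Of all probe sets, 20.7% had no overlap between TCDD and oil in thymocytes and 24.5% in emigrants. More cells of a type and more RNA per cell cannot be told apart in such bulk samples, here or in the results that follow.

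Mast cells are blood cells that keep Kit. The mean log2 level of 8 measured mast cell and basophil genes, of 9 listed, lay between 4.66 and 4.84 on all arrays, and 7 of the 8 had a higher mean in emigrants, as Kit did, with a median log2 difference of 0.07. Fcer1a, Ms4a2, Cma1 and Mcpt4 were below the median on every array, Cpa3, Mcpt8 and Tpsb2 above it on every array and Hdc on 7. The gene with the lower mean was Cpa3, a mast cell protease that progenitors also make (log2 difference -1.34, SE 0.39, limma adjusted p = 0.199). Over the 8 arrays the genes with the pattern most like Kit were Ypel3 (Pearson r = 0.969), Reep5, which encodes a protein of the endoplasmic reticulum (r = 0.957), and Wdr81 (r = 0.947). Like Kit they were highest in emigrants TCDD 2, with Ypel3 at 8.15 there against 7.06 to 7.43 in thymocytes.

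Markers of several other lineages also had higher means with TCDD in the emigrants, where Kit did. Natural killer cell markers went the other way, with 2 of 8 measured genes higher and 6 lower (median log2 difference -0.32). Endothelial markers were split, with 4 higher and 4 lower. The limma test called 0 of all these markers. Of 8 measured platelet and megakaryocyte genes 7 were higher, 6 of them with no overlap (24.5% of all probe sets had none), with a median log2 difference of 0.22. Their mean level was highest in emigrants TCDD 2, as was Kit, at 5.64, against 5.11 to 5.43 in the other emigrants and 5.00 to 5.43 in thymocytes. Pf4, which encodes platelet factor 4, was at 8.10 and 10.00 in emigrants with TCDD, 6.27 and 7.85 in emigrants with oil, 6.88 and 6.68 in thymocytes with oil and 6.52 and 8.96 in thymocytes with TCDD. Its TCDD difference in emigrants was 1.99, against -0.03 to 0.36 for the other genes of the list. The mean level of the list thus leaned on Pf4 and does not show that the list as a whole ran with Kit. All 10 granulocyte genes, all 7 measured erythroid genes and 7 of 8 macrophage genes were higher too, with median log2 differences of 0.91, 0.49 and 0.38. The arrays differed, however. The mean granulocyte level was 8.31 in emigrants TCDD 1 but 5.61 in TCDD 2, where Kit was highest, against 6.09 and 5.89 with oil. The erythroid mean was also higher in TCDD 1 (6.74 against 5.45), and the macrophage mean was higher in TCDD 2 (7.09 against 6.16). The part of these cells in the Kit values was not tested.

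Flt3, the receptor for FLT3 ligand on multipotent and dendritic progenitors, had a narrow range. It had values of 5.22 and 5.62 in thymocytes with oil, 5.24 and 5.39 in thymocytes with TCDD, 5.42 and 5.62 in emigrants with oil and 5.39 and 5.64 in emigrants with TCDD. The groups overlapped apart from emigrants and thymocytes under TCDD, which were 5.385 and 5.393 at their nearest. The log2 difference between the sources was 0.15 (SE 0.13, limma adjusted p = 0.66), and that between TCDD and oil was -0.11 in thymocytes and -0.01 in emigrants (SE 0.19 in both). The mean log2 level of 7 measured dendritic cell markers, of 9 listed, ran from 5.39 to 5.61, but its genes went both ways. Irf8, a factor of dendritic cells and their progenitors, was between 4.91 and 5.15 in emigrants, at 6.38 and 5.87 in thymocytes with oil and at 5.46 and 5.37 in thymocytes with TCDD. Its log2 difference between the sources was -0.77 (SE 0.14, limma adjusted p = 0.0914). Ccr9, a chemokine receptor of dendritic and T cells, was higher in all emigrant arrays (0.46, SE 0.15, adjusted p = 0.249).

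Cd34, a surface sialomucin of stem and progenitor cells, had values of 4.62 and 4.83 in thymocytes with oil and 4.47 and 4.09 in thymocytes with TCDD. In the emigrants they were 3.60 and 3.88 with oil and 3.85 and 4.05 with TCDD. All 4 emigrant arrays lay below all 4 thymocyte arrays, although emigrants TCDD 2 at 4.05 and thymocytes TCDD 2 at 4.09 lay close together and all values were below the array medians. The log2 difference between emigrants and thymocytes was -0.66 over both treatments (SE 0.14, limma adjusted p = 0.111). It was -0.98 under oil (SE 0.19, adjusted p = 0.233) and -0.33 under TCDD (SE 0.19, adjusted p = 0.777).

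With TCDD the Cd34 level was lower in thymocytes (log2 difference -0.44, SE 0.19, limma adjusted p = 1) with no overlap between arrays. In emigrants the difference was 0.21 (SE 0.19, adjusted p = 1) with overlap. The TCDD difference in emigrants less that in thymocytes was 0.65 (SE 0.28, limma adjusted p = 1), where 1.27% of all probe sets had an unadjusted p under 0.05 and Cd34 did not. Endothelial cells also carry Cd34. The mean level of 8 endothelial marker genes lay between 4.78 and 4.90 on all arrays, with Cdh5, Pecam1, Tek and Sox18 below every array median and Kdr, Eng, Esam and Egfl7 above it on every array. Between the sources 3 of the 8 had a higher and 5 a lower mean, with a median log2 difference of -0.02. Egfl7, an endothelial secreted factor, had the smallest p and like Cd34 a lower mean in emigrants (-0.36, SE 0.16, limma adjusted p = 0.375).

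Granulocyte markers had the direction of Cd34 in most of these comparisons, with 0 of 10 genes past the limma test. With TCDD all 10 were lower in thymocytes (median log2 difference -0.41) and all 10 higher in emigrants (0.91). Under oil all 10 were lower in emigrants than in thymocytes with no overlap (-1.17, where 38.9% of all probe sets had no overlap). Under TCDD, unlike Cd34, 8 were higher in emigrants and 2 lower (0.22). Their mean log2 level was 7.51 and 6.88 in thymocytes with oil, 7.37 and 6.19 in thymocytes with TCDD, 6.09 and 5.89 in emigrants with oil and 8.31 and 5.61 in emigrants with TCDD. The part of granulocyte or endothelial RNA in the Cd34 values was not tested.

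Lyl1, Tal1 and Lmo2 encode partners of 1 kind of complex: Lyl1 and Tal1 are related basic helix-loop-helix factors that bind DNA with E proteins, and Lmo2 is the LIM-domain bridge that joins them to GATA factors and Ldb1. Lyl1 had values of 5.35 and 5.27 in thymocytes with oil, 5.61 and 5.05 in thymocytes with TCDD, 5.06 and 4.80 in emigrants with oil and 5.04 and 5.24 in emigrants with TCDD. The emigrants lay below the thymocytes under oil without overlap, but not under TCDD. The log2 difference over both treatments was -0.28 (SE 0.15, limma adjusted p = 0.471).

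Tal1 behaved otherwise. It lay between 4.36 and 4.68 on 6 of the 8 arrays, at 5.81 in emigrants oil 1 and at 6.50 in emigrants TCDD 1. The partner arrays, emigrants oil 2 and TCDD 2, were at 4.36 and 4.55, so each emigrant group held 1 high and 1 low array. The log2 difference between the sources was 0.75 (SE 0.49, limma adjusted p = 0.543), and that between TCDD and oil in emigrants was 0.44 (SE 0.70, limma adjusted p = 1). Under TCDD both emigrant arrays lay above both thymocyte arrays, by little for emigrants TCDD 2. In thymocytes TCDD lay below oil without overlap, by -0.16 (SE 0.70, limma adjusted p = 1), with all 4 values below the array medians.

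Of 3236 genes of sufficient level and range, those with the pattern most like Tal1 over the 8 arrays were C1qtnf12 (Pearson r = 0.991), Rhd, which encodes a Rh protein of the red cell membrane (r = 0.985), and Car1, the red cell carbonic anhydrase (r = 0.984). Car1 was at 7.88 and 8.61 in emigrants oil 1 and TCDD 1 and between 4.07 and 4.64 on the other arrays. Rhd was at 6.96 and 7.87 in those arrays and between 5.04 and 5.55 elsewhere. These correlations describe 8 arrays that share treatments and cell sources, and they carry no test.

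The list of erythroid markers, with 7 of 11 genes measured, had mean log2 levels of 6.09 and 6.74 in emigrants oil 1 and TCDD 1, of 5.06 and 5.45 in emigrants oil 2 and TCDD 2, and between 4.93 and 5.20 in the thymocytes. Rhag, a partner of the Rh protein, was at 4.70 and 5.84 in the 2 arrays with high Tal1 and between 3.03 and 3.50 on the others. Ermap, a red cell membrane protein gene, was at 6.62 and 7.87 there and between 4.08 and 4.75 elsewhere. Car2, a carbonic anhydrase, was high in all emigrants, from 7.73 to 10.43, against 5.92 to 6.33 in thymocytes. Alas2, the erythroid enzyme of haem synthesis, did not keep to the pattern, with 5.85 and 6.33 in thymocytes oil 1 and TCDD 1 against 5.76 and 6.25 in emigrants oil 1 and TCDD 1. The measured globin gene, Hba-a1, was below every array median. The part of erythroid RNA in the Tal1 values was not tested.

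**Figure D2:**
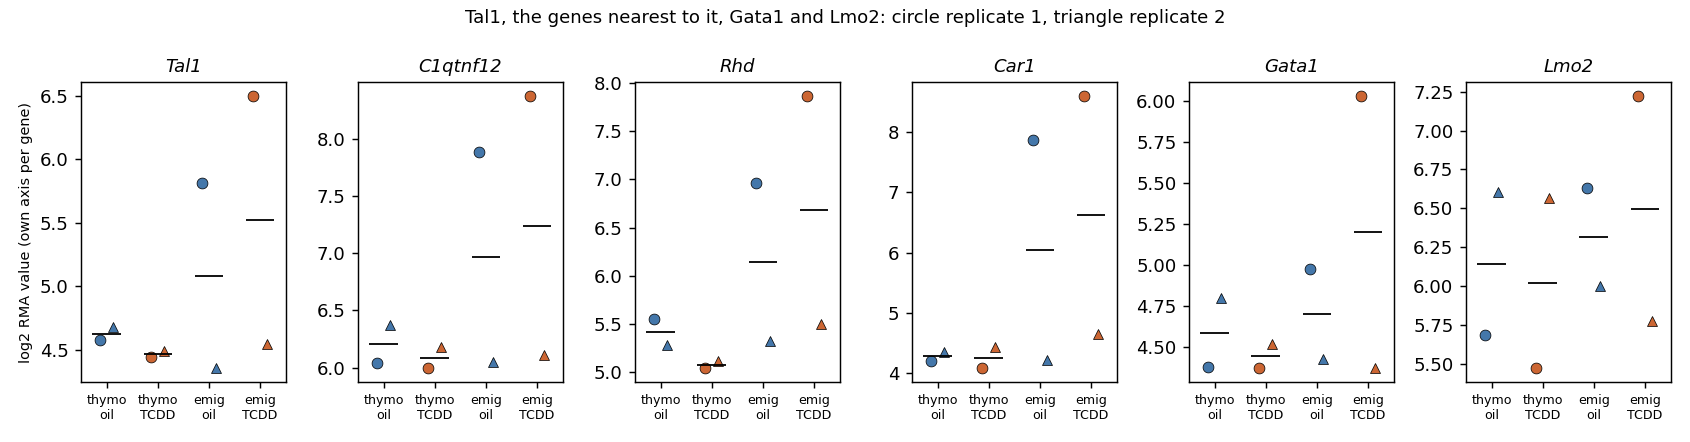
Log2 RMA values (y axis, scaled for each gene) of Tal1, of C1qtnf12, Rhd and Car1, the 3 genes with the pattern most like it, and of Gata1 and Lmo2, in thymocytes (thymo) and emigrants (emig) given oil (blue) or TCDD (orange); circles are replicate 1, triangles replicate 2 and lines group means. Tal1, C1qtnf12, Rhd and Car1 are high in replicate 1 of both emigrant groups; Lmo2 is also at 6.60 and 6.57 in replicate 2 of the thymocyte groups.

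Lmo2 shared part of this pattern. It was at 6.63 and 7.22 in emigrants oil 1 and TCDD 1, and at 6.00 and 5.78 in emigrants oil 2 and TCDD 2. In thymocytes the numbers were turned, with 5.69 and 5.47 in oil 1 and TCDD 1 and 6.60 and 6.57 in oil 2 and TCDD 2. The groups overlapped in every comparison, and the log2 difference between the sources was 0.33 (SE 0.43, limma adjusted p = 0.775). That between TCDD and oil was -0.12 in thymocytes and 0.18 in emigrants (SE 0.61 in both). The spread of Lmo2 thus lay within the groups and not between them.

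Of 10 other measured genes that were listed as linked to this complex, 0 passed the limma test in any comparison. Those with the smallest p between the sources were Cbfa2t3, a corepressor of the complex (log2 difference -0.76, SE 0.24, limma adjusted p = 0.23), the E protein gene Tcf3 (-0.69, SE 0.23, adjusted p = 0.256), Fli1 (0.49, SE 0.19, adjusted p = 0.315) and the E protein gene Tcf12 (-1.13, SE 0.54, adjusted p = 0.409). Cbfa2t3 alone of these 10 had no overlap between the emigrant and the thymocyte arrays, where 11.9% of all probe sets had none, a share near that background. Gata1, the erythroid GATA factor, was at 4.97 and 6.03 in emigrants oil 1 and TCDD 1 and between 4.37 and 4.80 on the other arrays.

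Hhex, a homeodomain factor of blood progenitors that is repressed at commitment, had values of 6.31 and 7.48 in thymocytes with oil and 6.66 and 7.55 in thymocytes with TCDD. In the emigrants it was at 7.89 and 8.70 with oil and 7.88 and 7.75 with TCDD. Every emigrant array lay above every thymocyte array, with 7.75 against 7.55 as the nearest pair. The level was 2.08-fold higher in emigrants over both treatments (log2 difference 1.05, SE 0.35, n = 4 against 4, limma adjusted p = 0.246).

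The Hhex difference was 1.40 under oil (SE 0.49, limma adjusted p = 0.457) and 0.71 under TCDD (SE 0.49, adjusted p = 0.812). Without thymocytes oil 1 the first was 0.82, and without thymocytes TCDD 1 the second was 0.26. TCDD lay below oil in the emigrants with no overlap (-0.48, SE 0.49, adjusted p = 1), while the thymocyte arrays overlapped (0.21, SE 0.49, adjusted p = 1). Without emigrants oil 2 the difference in emigrants was -0.08.

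The genes with the pattern most like Hhex were Ndfip1, an adaptor of NEDD4 ubiquitin ligases (r = 0.981), Cept1, an enzyme of phospholipid synthesis (r = 0.966), and the DNA helicase gene Helb (r = 0.961). Beside Hhex, macrophage markers were also at higher means in emigrants for all 8 measured genes of the 9 listed, with none past the limma test. Their mean log2 level ran from 5.56 to 6.04 in thymocytes and from 5.70 to 7.09 in emigrants. Csf1r, the receptor of macrophage colony-stimulating factor, was the member with the smallest p (log2 difference 1.18, SE 0.17, limma adjusted p = 0.0621). The part of these cells in the Hhex values was not tested.

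Meis1, a homeodomain cofactor of stem cell HOX proteins, was below the median on all arrays. It was at 3.63 and 3.67 in thymocytes with oil, 3.55 and 3.69 with TCDD, 3.58 and 4.41 in emigrants with oil and 3.73 and 4.01 with TCDD. The emigrants lay above the thymocytes under TCDD without overlap, and under oil emigrants oil 1 lay below both thymocyte arrays. The log2 difference over both treatments was 0.30 (SE 0.19, limma adjusted p = 0.544).

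Bcl11a, a zinc finger repressor needed by lymphoid progenitors and B cells, was above the median on 2 arrays only. Its brighter probe set was at 4.46 and 4.82 in thymocytes with oil, 4.78 and 5.04 with TCDD, 4.70 and 4.08 in emigrants with oil and 5.39 and 4.23 with TCDD. The arrays overlapped in every comparison. The log2 difference between TCDD and oil was 0.27 in thymocytes and 0.42 in emigrants (SE 0.41 in both, limma adjusted p = 1 in both). Between the sources it was -0.17 (SE 0.29, limma adjusted p = 0.827), and that of the second probe set, at 3.33 to 3.70, was -0.06.

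Mef2c, a MADS-box factor of lymphoid progenitors, B cells and myeloid cells, was marked by 1 array. Its brightest probe set was at 5.14 and 5.67 in thymocytes with oil and 5.46 and 6.92 with TCDD, and at 4.95 and 5.04 in emigrants with oil and 5.19 and 4.96 with TCDD. Thymocytes TCDD 2 was the highest array, and the probe sets ranked 2 and 3 by level were highest there too, at 5.85 and 5.84. The dimmest 2 probe sets spanned only 0.32 and 0.26 log2 units over all arrays. Without that array the log2 difference between TCDD and oil in thymocytes was 0.06, against 0.79 with it (SE 0.46, limma adjusted p = 1).

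Between the sources the brightest Mef2c probe set had a log2 difference of -0.77 (SE 0.32, limma adjusted p = 0.361). The emigrants lay below the thymocytes under each treatment, while emigrants TCDD 1 lay above thymocytes oil 1. The other 4 probe sets had source differences of -0.22, 0.00, 0.11 and 0.02, so they did not share its size, and only the first was lower in emigrants. Under oil these 4 were higher in emigrants, by 0.05, 0.31, 0.21 and 0.06, against -0.41 for the brightest. Under TCDD their differences were -0.50, -0.30, 0.02 and -0.03, against -1.12 for the brightest. Probe set 3, at 5.11 and 5.41 in emigrants oil 1 and TCDD 1 against 4.52 and 4.11 in their partners, followed the replicate number in emigrants as Tal1 did.

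The pattern most like that of Mef2c was that of Tec, a tyrosine kinase of lymphocytes (r = 0.954), followed by Fam114a2 (r = 0.919) and Use1 (r = 0.908). B cell markers were highest in the same array: the mean log2 level of 8 measured genes, of 9 listed, was 6.38 in thymocytes TCDD 2, between 5.84 and 6.11 in the other thymocyte arrays and between 5.06 and 5.44 in emigrants. Ms4a1, which encodes CD20, was at 8.93 in thymocytes TCDD 2, between 6.96 and 8.07 in the other thymocytes and between 4.57 and 5.36 in emigrants. The B lineage genes Cd79a, Pax5 and Ebf1 were below every array median. The part of B cell RNA in the Mef2c values was not tested.

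**Figure D3:**
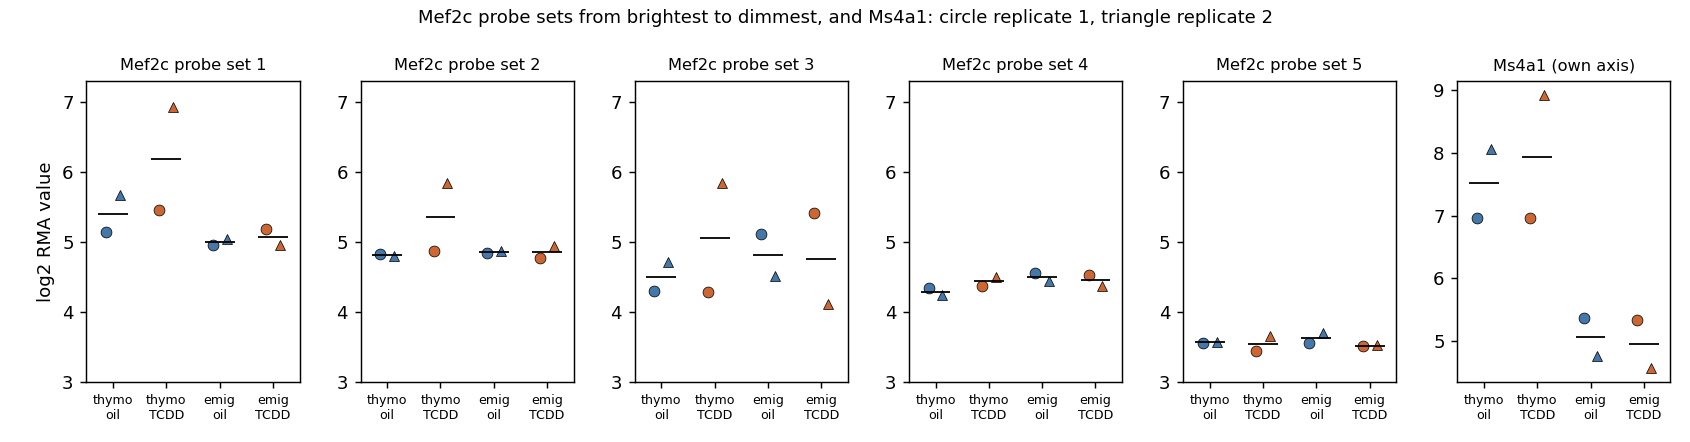
Log2 RMA values (y axis) of the 5 Mef2c probe sets, from the brightest (1) to the dimmest (5), and of the B cell gene Ms4a1 on its own axis, in thymocytes (thymo) and emigrants (emig) given oil (blue) or TCDD (orange); circles are replicate 1, triangles replicate 2 and lines group means. Thymocytes TCDD 2 is highest for probe sets 1 to 3, at 6.92, 5.85 and 5.84, and for Ms4a1 at 8.93.

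As a set, the members did not lean one way. Of the 10 genes, by their brightest probe sets, 6 had a higher and 4 a lower mean in emigrants over both treatments, with a median log2 difference of 0.22. Over all 16 member probe sets the median was 0.05, against 0.02 for all probe sets. The arrays of the sources did not overlap for 2 of the 16 member probe sets (12.5%), those of Hhex and Cd34, against 11.9% of all probe sets, a share near that background. Without emigrants oil 1, whose Treatment field names TCDD, Meis1 joined them, with 14.8% of all probe sets, and without emigrants TCDD 2 the 2 were as before, with 16.3% of all. At an unadjusted limma p under 0.05 there were 3 member probe sets, those of Kit, Hhex and Cd34, where 14.4% of all probe sets had one.

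For TCDD against oil in thymocytes, 5 genes had a higher and 5 a lower mean, and 6 of the 16 probe sets had no overlap (37.5%, against 20.7% of all). These were both of Kit, 2 of Mef2c, Cd34 and Tal1, with differences as small as 0.10 for the second Kit probe set. In emigrants 7 genes had a higher and 3 a lower mean, and 4 of 16 probe sets had no overlap (25%, against 24.5% of all), both of Kit, Hhex and the dimmest of Mef2c. For emigrants against thymocytes, 7 of 16 had no overlap under oil (43.8%, against 38.9% of all) and 8 of 16 under TCDD (50%, against 35.8%). Of the members, 0 had an unadjusted limma p under 0.05 for TCDD in either source, where 1.39% of all probe sets had one in thymocytes and 1.2% in emigrants. There were 3 for the sources under oil and 2 under TCDD, with 9.06% and 7.54% of all. Comparisons that share a group share its arrays.

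**Figure D4:**
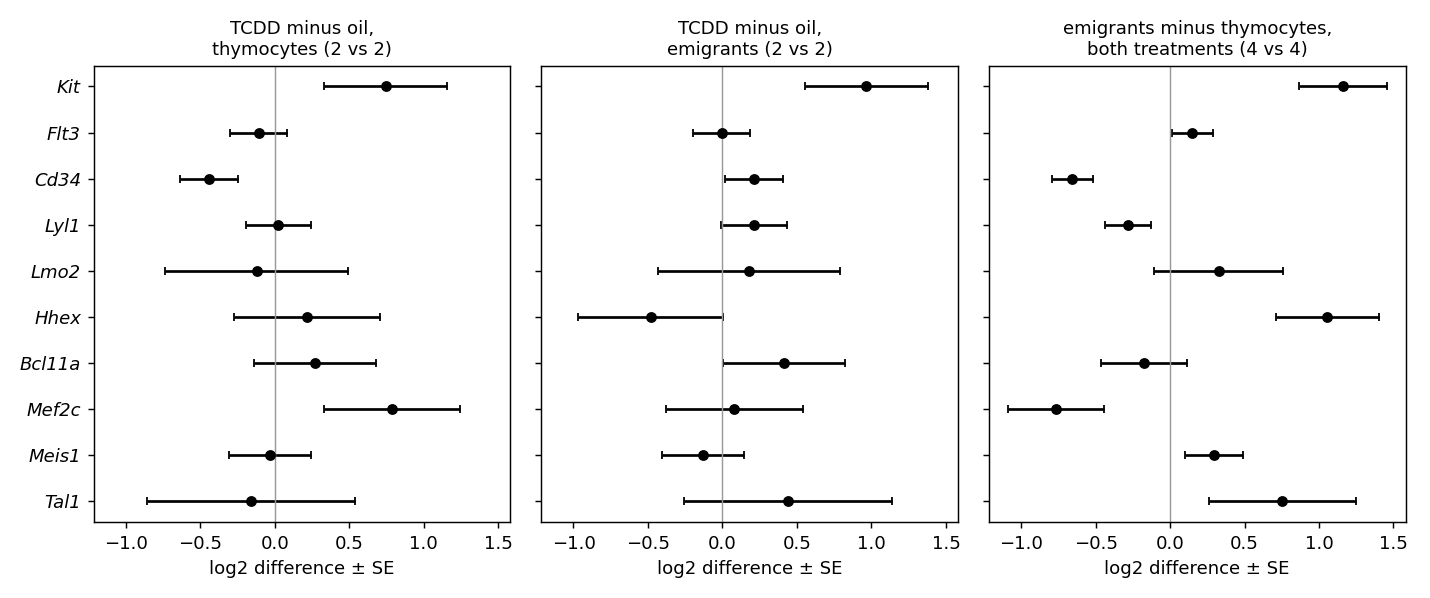
Log2 difference (x axis) with its limma SE (bars) for the brightest probe set of each of the 10 genes, for TCDD minus oil in thymocytes, TCDD minus oil in emigrants, and emigrants minus thymocytes over both treatments. Kit lies to the right in all 3 panels, at 0.74, 0.97 and 1.16; no difference shown passed the limma test.

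Among 13 measured of 15 listed further regulators of progenitors, 0 passed the limma test in any comparison. Their median log2 difference between emigrants and thymocytes was 0.09, with 9 higher and 4 lower. Runx1, a core factor of blood stem cells that stays on in T cells, had the smallest p (0.46, SE 0.16, limma adjusted p = 0.272), followed by Hoxa7 (-0.34), Gata2 (0.27) and Gfi1b (0.30). For TCDD in emigrants it was Spi1, which encodes the myeloid and progenitor factor PU.1 (log2 difference 0.53, SE 0.20, limma adjusted p = 1). Spi1 lay at 4.89 and 5.10 with TCDD and at 4.55 and 4.39 with oil, close to the array medians.

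Of 13 measured ligands and signalling genes of Kit and Flt3, 0 passed in any comparison, and 7 were higher and 6 lower in emigrants. Kitl, which encodes the Kit ligand, was the only one of the 13 with no overlap between the sources (log2 difference 0.28, SE 0.12, limma adjusted p = 0.377). Of all probe sets, 11.9% had none. Stat5b, a transcription factor downstream of cytokine receptors, had a difference of -0.59 (SE 0.20, adjusted p = 0.256). For TCDD the adaptor gene Grb2 had no overlap in either source, at 0.23 in thymocytes and 0.33 in emigrants (SE 0.16 in both, limma adjusted p = 1 in both). In these comparisons 20.7% and 24.5% of all probe sets had no overlap.

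The genes that replace the progenitor program at commitment were mostly at lower means in emigrants. Of 14 measured commitment genes 12 had a lower mean in emigrants, 6 of them with no overlap (11.9% of all probe sets had none), and the median log2 difference was -0.49, while 0 passed the limma test. Those with the smallest p were Ptcra, the pre-T cell receptor alpha chain (-3.44, SE 0.36, limma adjusted p = 0.0524), Notch1 (-2.01, SE 0.29, adjusted p = 0.0603), Thy1 (-0.75, SE 0.12, adjusted p = 0.0674) and the interleukin 2 receptor gene Il2ra (-2.39, SE 0.40, adjusted p = 0.0752). Other genes of the list did not share these falls. Cd3e had differences of 0.31 under oil and 0.57 under TCDD, and Ets1 of 0.29 and -0.05. Cd5 had differences of 0.14 and -0.18, and Lef1 of -0.03 and -0.02. Whether the commitment genes differ from the progenitor genes in this respect was not tested.

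Natural killer cell markers were at higher means in emigrants for 6 of 8 measured genes, of 9 listed, with a median log2 difference of 0.25 and 0 past the limma test. Under oil 5 of the 8 had no overlap (38.9% of all probe sets had none), and under TCDD 2 of the 8 (35.8% of all). Those with the smallest p over both treatments were Tbx21, which encodes the factor T-bet (1.64, SE 0.23, limma adjusted p = 0.0603), Eomes, a related factor (1.64, SE 0.28, adjusted p = 0.0752), the receptor gene Il2rb (0.41, SE 0.11, adjusted p = 0.155) and the lectin receptor gene Klrd1 (1.68, SE 0.46, adjusted p = 0.178). The list was not uniform: the granule gene Gzma had differences of -0.35 under oil and -2.10 under TCDD. Prf1, Ncr1 and Klrk1 lay between -0.10 and 0.18 under either treatment. The part of natural killer cell RNA in the differences of the progenitor genes between the sources was not tested.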

How the data were processed

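The deposited values are log2 levels of 22690 probe sets on 8 arrays, made by the authors with RMA, per the submitters' processing notes (version not given). RMA corrects background, aligns the array distributions and compresses differences of dim probe sets. Precision was limited by 2 arrays a group. Names came from the platform annotation (20393 probe sets with 1 symbol, 691 with several and 1606 with none, the last 2 kinds left out), updated by gene identifier for 20364 through RefSeq (GRCm38.p6).

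Every named probe set was fitted with limma 3.58.1 in R 4.3.3 (4 group means, all 8 arrays, eBayes, two-sided, Benjamini-Hochberg, threshold 0.05). There were 4 residual degrees of freedom, and the median residual SD was 0.216. The code was tested on simulated arrays. A gene is given by its brightest probe set, lists by up to 4 genes of smallest p, and likeness by Pearson r among genes above the median level with a range of at least 1 log2 unit, for the 4 members of widest range. The members and lists were chosen with earlier results of these data known. Alternatives were other scalings, probe set choices and priors, the replicate number as a block, grouping emigrants oil 1 by its Treatment field, and each array left out in turn. Figures were drawn with matplotlib 3.10.9.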

Additional observations from a re-analysis of the deposited data

How the results depend on the processing

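The member differences were recomputed under 10 other settings and with each array left out in turn, and 0 member probe sets passed the limma threshold in any of these. Of the member differences under other settings, 524 kept their sign and 8 did not. The source differences of Kit, Hhex and Cd34 and the TCDD differences of Kit kept their sign under every setting run and with every array left out. With the Treatment field followed for emigrants oil 1, differences turned for Cd34 with TCDD in emigrants (-0.0517), Mef2c with TCDD in emigrants (-0.0048), Lmo2 and Tal1 between the sources under oil (-0.14 and -0.273) and Flt3 in the comparison of TCDD differences (-0.0271). Repeated quantile normalization gave 0.000939 for Flt3 with TCDD in emigrants. The mean of the probe sets of a gene gave -0.026 for Mef2c with TCDD in emigrants and 0.0438 for Mef2c between the sources under oil. The causes were not tested.

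With single arrays left out, 439 member differences kept their sign and 49 did not, and the ranges of the latter follow. The TCDD difference in thymocytes ran from -0.37 to 0.799 for Hhex, from -0.309 to 0.0905 for Flt3, from -0.254 to 0.3 for Lyl1 and from -0.669 to 0.423 for Lmo2. It ran from -0.104 to 0.0426 for Meis1. The TCDD difference in emigrants ran from -0.129 to 0.117 for Flt3, from -0.544 to 0.903 for Lmo2, from -0.538 to 0.283 for Meis1 and from -0.539 to 1.41 for Tal1. It ran from -0.165 to 0.996 for Bcl11a and from -0.0339 to 0.195 for Mef2c. The source difference under oil ran from -0.284 to 0.634 for Lmo2, from -0.273 to 1.18 for Tal1, from -0.101 to 0.298 for Flt3 and from -0.56 to 0.0662 for Bcl11a. It ran from -0.0656 to 0.756 for Meis1. The source difference under TCDD ran from -0.246 to 1.2 for Lmo2, from -0.683 to 0.478 for Bcl11a and from -0.465 to 0.0888 for Lyl1. The source difference over both treatments ran from -0.0352 to 0.688 for Lmo2 and from -0.465 to 0.116 for Bcl11a. The TCDD difference in emigrants less that in thymocytes ran from -0.338 to 0.785 for Kit, from -0.421 to 1.03 for Lmo2, from -0.436 to 0.724 for Bcl11a and from -0.508 to 0.314 for Meis1. It ran from -0.379 to 1.57 for Tal1, from -0.0962 to 0.303 for Flt3, from -0.0882 to 0.466 for Lyl1 and from -1.44 to 0.0253 for Mef2c.

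Over all probe sets, the 16 calls between the sources over both treatments became 117 with brighter probe sets only, 69 with the mean of the probe sets, 6 with a trend and robust prior, 82 with the Treatment field and 0 to 70 with an array left out. Leaving out emigrants oil 1 gave 2 calls, leaving out its partner oil 2 gave 39, and leaving out emigrants TCDD 1 gave 70. There were 0 calls with emigrants TCDD 2 or any 1 of the thymocyte arrays left out. Under oil alone the 0 calls became 1 with the mean of the probe sets and 2 with the Treatment field. Under TCDD alone they became 1 with a trend and robust prior, 15 with the Treatment field and 0 to 10 with an array left out. With the Treatment field, the 0 calls for TCDD in emigrants and for the comparison of TCDD differences each became 1. The causes were not tested.

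Arrays of different sources share only a replicate number: the deviations of same-numbered arrays correlated at 0.734 between the thymocyte groups and 0.511 between the emigrant groups, but between -0.15 and 0.116 across sources. With the number as a replicate block, the 16 calls became 221, and with a replicate block within each source the 0 calls for TCDD in thymocytes became 1. Between same-numbered arrays Tal1 differed with TCDD by 0.69 and 0.19 in emigrants and by -0.13 and -0.19 in thymocytes, and the brightest Bcl11a probe set by 0.32 and 0.22 in thymocytes and 0.68 and 0.15 in emigrants. With the replicate block within each source, limma gave both genes an adjusted p of 1 in thymocytes and 0.849 in emigrants. Crossing the numbers between the sources under TCDD, chosen after seeing the data, gave 0 calls. The arrays number 2 a group, which limits the precision of every difference, and no detection measure was used for dim probe sets.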
